A study of Mus musculus with 55 samples.

Results

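Bicuculline (Bic) and KCl were compared with each other directly, at the same time of stimulation, in mature forebrain neurons. The comparison holds 12 of the 55 samples of the series, chosen by their labels alone: 6 samples given Bic and 6 given KCl, with 2 of each stimulus at 15, 45 and 180 min. They belong to a stimuli experiment of 27 samples, from which 3 unstimulated (basal) samples are shown as background and enter no test. All cultures were made from cortex and hippocampus of CD1 mouse embryos of both sexes at embryonic day 16 to 17.5, were kept in Neurobasal-A with B27, and were used as 21DIV neurons, which covers 19 to 23 days in vitro. KCl was added to 55 mM, and Bic to 50 μM, alone and without 4-aminopyridine. Both went into the growth medium without prior silencing and stayed until collection. The cultures pool embryos, hold glia beside neurons, and whether replicates of a group came from separate cultures is not stated for this experiment, so that p-values measure the spread between these samples. A letter in the sample descriptions, whose meaning the labels do not give, was the same for both stimuli at a given time and differed between 180 min and the earlier times. Of the basal samples, replicates 1 and 2 carried the letter of 180 min and replicate 5 that of the earlier times. Values set against basal therefore cross this letter in part at every time.

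Bic blocks GABA-A receptors, the main inhibitory receptors of the forebrain, and lets the excitatory synapses of the network drive bursts of action potentials. A high extracellular KCl concentration shifts the potassium equilibrium and holds the membrane of every cell in the dish depolarized, glia included, which opens voltage-gated calcium channels. Both routes raise calcium in neurons and switch on immediate early genes, which need no new protein for their transcription. Many of these encode transcription factors (Fos, Egr and Nr4a families, Npas4). Others act at synapses (Arc, Homer1) or end the signal that induced them (Dusp phosphatases). Late response genes follow.

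Counts on genes ranged from 1177504 to 3909485 in the 12 samples (median 2707219), and 10953 genes with more than 5 CPM (counts scaled to a common library total) in at least 2 samples were tested. At 180 min the 2 KCl samples were shallower, with 1277233 and 1796374 counts against 3448779 and 3909485 in the Bic samples. The summed CPM of 10 neuronal markers lay between 9204 and 10510 in the 12 samples and the basal ones, while markers of microglia summed to under 13 CPM and those of choroid plexus to under 6. A gene was called different where edgeR's quasi-likelihood test gave a Benjamini-Hochberg adjusted p under 0.05 and the fitted difference was at least 1.5-fold. Values below are CPM per sample, and differences are log2 of Bic over KCl with their standard error (SE), always of 2 against 2 samples at a given time.

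Few genes separated the stimuli at 15 min, and at 45 min most of the genes that did were higher under Bic. At 15 min 10 genes were called (0.0913% of those tested), 4 higher under Bic (0.0365%) and 6 higher under KCl (0.0548%). At 45 min 156 were called (1.42%), of which 108 were higher under Bic (0.986%) and 48 under KCl (0.438%). At 180 min 152 were called (1.39%), of which 71 were higher under Bic (0.648%) and 81 under KCl (0.74%). The mean of the 3 time-matched differences called 59 genes (0.539%), 48 higher under Bic (0.438%) and 11 under KCl (0.1%). The median difference over all genes was within 0.01 of 0 at each time.

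Most called genes passed the threshold at a single time. Of 283 genes called at any time, 250 were called at exactly 1 time. A missed call at another time does not show that the stimuli were equal there. Dusp2, for example, was called at 15 min only, with log2 differences of 1.45, 0.74 and 1.07 at the 3 times. Genes higher under Bic at both 45 and 180 min numbered 31, which is 28.7% of the 108 at 45 min and 43.66% of the 71 at 180 min. No gene was called higher under KCl at both of these times. A test of whether the difference itself varied with time called 124 genes (1.13%, adjusted p under 0.05 with no limit on fold).

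Arc, Npas4 and Gadd45g, all classical neuronal activity genes, showed the divergence most plainly. Arc encodes a capsid-like protein that promotes the removal of AMPA receptors from synapses. It had 348 and 229 CPM under Bic and 308 and 381 under KCl at 15 min, against 25.6 to 35.7 in the basal samples. At 45 min it had 1053 and 1386 CPM under Bic but 77.9 and 105 under KCl. At 180 min the Bic samples had 293 and 247 CPM and the KCl samples 90.0 and 87.4. The groups overlapped at 15 min and were far apart later, with a log2 difference of −0.23 ± 0.16 at 15 min (edgeR adjusted p = 0.94), 3.77 ± 0.18 at 45 min (13.7-fold, edgeR adjusted p = 1e-15) and 1.63 ± 0.18 at 180 min (edgeR adjusted p = 7.6e-07). Arc also had the lowest p for a difference that varied with time (edgeR adjusted p = 4.0e-12).

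Npas4, a transcription factor induced by calcium entry that controls inhibitory synapses, followed a like course. Its levels at 15 min were 263 and 205 CPM under Bic and 194 and 198 under KCl, above the basal range of 58.5 to 81.7. At 45 min they were 642 and 720 CPM under Bic and 96.7 and 132 under KCl, and at 180 min 614 and 543 under Bic and 166 and 160 under KCl. The KCl samples at 45 min thus lay below all KCl samples of the other times, whereas the Bic samples stayed high. The log2 differences were 2.61 ± 0.14 at 45 min and 1.85 ± 0.14 at 180 min (edgeR adjusted p = 5.1e-14 and 3.2e-10).

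Gadd45g, a growth arrest and DNA damage gene, was called at 45 min and not at 15 or 180 min. It had 555 and 496 CPM under Bic and 83.2 and 121 under KCl at 45 min, a log2 difference of 2.39 ± 0.16 (edgeR adjusted p = 2.5e-12). At 180 min it had 197 and 196 CPM under Bic and 190 and 182 under KCl, and the difference was 0.10 ± 0.16 (edgeR adjusted p = 0.842). The variation with time had an edgeR adjusted p of 8.1e-09.

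**Figure D1:**
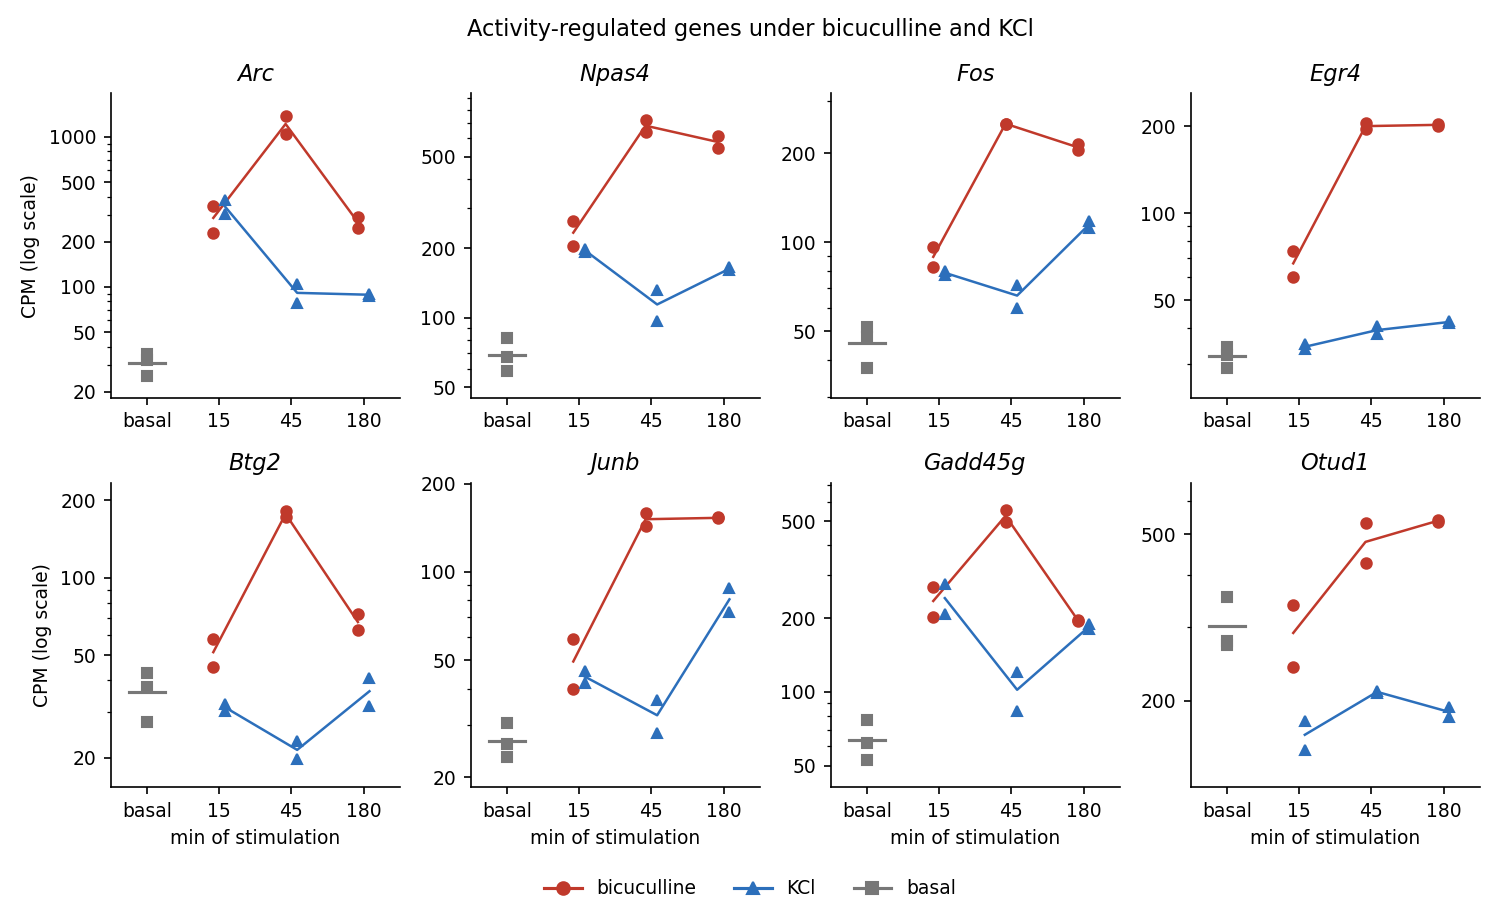
CPM on a log scale of 8 activity-regulated genes in each sample, with time points evenly spaced on the horizontal axis. Points are samples (circles Bic, triangles KCl, squares basal) and lines join the means of 2 samples, or mark the mean of 3 basal samples. For Arc the stimuli overlap at 15 min, and at 45 min the Bic samples sit at 1053 and 1386 and the KCl samples at 77.9 and 105.

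The list of immediate early transcription factors held 27 tested genes. Like the other lists, it was chosen with earlier results of these data known, so its shares are a description and no test. At 45 min 16 of them (59.3%) were higher under Bic and none under KCl, against 0.986% and 0.438% of all genes. Their median log2 difference was 0.87, where the median of all genes was 0.00. At 180 min 13 (48.1%) were higher under Bic and 1 (3.7%), Klf4, under KCl, against 0.648% and 0.74% of all genes. The median was 0.69. Klf4 had 10.15 and 10.49 CPM under Bic and 19.57 and 30.62 under KCl at 180 min (−1.285 ± 0.337, edgeR adjusted p = 0.0429). Its call was lost without each sample of that time and with counts summed over transcripts. At 15 min only Egr4 was called (3.7%, against 0.0913% of all genes), and the median was 0.04. Over the 3 times together 12 were higher under Bic (44.4%, against 0.438% of all genes).

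The means placed these factors at different times under each stimulus. Under Bic 15 of the 27 had their highest mean at 45 min, 11 at 180 min and 1 at 15 min. Under KCl 13 had it at 15 min, 2 at 45 min and 12 at 180 min. These times were not tested against each other, and samples of 180 min carried another letter in their descriptions. Some means were nearly equal, such as those of Egr4 (200.1 and 202.1 CPM) and Jun (602 and 603) under Bic at 45 and 180 min. The median ratio to the basal mean was 1.77, 2.31 and 2.2 under Bic at 15, 45 and 180 min, and 1.65, 1.23 and 1.4 under KCl. The medians were closest to each other at 15 min, and the lowest was that of KCl at 45 min.

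Fos, a subunit of the AP-1 factor, had 96.1 and 82.4 CPM under Bic and 77.6 and 80.0 under KCl at 15 min. At 45 min it had 251.1 ± 0.14 CPM (SD, n = 2) under Bic and 60.1 and 72.0 in the KCl samples. At 180 min it had 214 and 204 under Bic and 112 and 118 under KCl. Basal samples had 37.7 to 51.7 CPM. No Bic sample overlapped a KCl sample at any of the 3 times. At 15 min the same held for 15.6% of all genes with Bic above, and the Fos difference was 0.20 ± 0.15 (edgeR adjusted p = 0.94). The difference was 1.96 ± 0.14 at 45 min and 0.88 ± 0.14 at 180 min (edgeR adjusted p = 2.5e-11 and 0.00035).

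The AP-1 genes Junb, Fosb and Jun showed the same order at 45 min. Junb had 143 and 159 CPM under Bic and 36.6 and 28.4 under KCl (log2 difference 2.24 ± 0.18), Fosb 153 and 167 against 47.6 and 49.3 (1.75 ± 0.19), and Jun 519 and 685 against 313 and 275 (1.06 ± 0.13). All were called again at 180 min, with smaller differences of 0.95, 1.06 and 0.69. Fosl2 was called at 180 min only, at 0.67 ± 0.17. At 180 min Junb and Fosb lost the call without KCl replicate 2 (0.81 and 0.80), Jun without Bic replicate 2 (0.59) or KCl replicate 1 (0.61), and Fosl2 without any of the 4 samples of that time or either KCl sample of 45 min.

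Egr4, a zinc finger factor, was called at all 3 times, as was the deubiquitinase gene Otud1. It had 73.7 and 60.3 CPM under Bic and 33.8 and 35.1 under KCl at 15 min, 196 and 205 against 38.04 and 40.7 at 45 min, and 201 and 204 against 42.3 and 41.8 at 180 min. The basal range was 29.1 to 34.5, so the KCl samples of 15 min reached from inside it to just above it. Its log2 differences were 0.99 ± 0.17, 2.37 ± 0.15 and 2.29 ± 0.16, and its mean difference of 1.88 ± 0.09 had an edgeR adjusted p of 5.3e-15. The call at 15 min was lost without Bic replicate 2 (0.83) or KCl replicate 1 (0.98) or 2 (1.01) of that time, and the later calls held in every fit that left out a sample.

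For the other early growth response genes the samples overlapped at 15 min and were apart later. Egr1 had 276 and 255 CPM under Bic against 80.0 and 82.6 under KCl at 45 min (1.73 ± 0.18), and 206 and 177 against 76.0 and 60.7 at 180 min (1.52 ± 0.20). Egr3 had 82.2 and 90.9 against 32.4 and 26.3 at 45 min (1.58 ± 0.21), and 42.3 and 45.3 against 14.9 and 12.3 at 180 min (1.73 ± 0.28), a call that ended without KCl replicate 2 of that time (1.58, edgeR adjusted p = 0.050). Egr1 kept both calls in every fit that left out a sample.

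Btg2, an antiproliferative cofactor, had 172 and 182 CPM under Bic and 23.1 and 19.7 under KCl at 45 min, when the basal samples had 27.6 to 42.5. The KCl samples therefore lay below all basal samples, and the log2 difference was 3.07 ± 0.19 (edgeR adjusted p = 3.8e-13). Ier2, another immediate early gene, had 127 and 138 CPM under Bic and 27.4 and 39.5 under KCl at that time (2.02 ± 0.19). At 180 min Btg2 had 72.2 and 62.4 against 40.7 and 31.7 (0.93 ± 0.20), a call lost without Bic replicate 2 (0.82) or KCl replicate 2 (0.74).

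Orphan nuclear receptors of the Nr4a family did not differ alike, and Nr4a3 was called at no time. Nr4a1 was called at 45 min (71.3 and 83.7 CPM under Bic, 34.8 and 37.0 under KCl, 1.14 ± 0.19) and missed the threshold at 180 min (0.71 ± 0.19, edgeR adjusted p = 0.052). Nr4a2, known for its part in dopamine neurons, had 37.3 and 36.7 CPM under Bic and 11.02 and 16.03 under KCl at 45 min (1.49 ± 0.28), a call lost without KCl replicate 1 (1.24). At 180 min its KCl samples were the higher ones, 41.5 and 42.3 CPM against 28.7 and 37.1 (−0.33 ± 0.25, edgeR adjusted p = 0.63). Its difference varied with time (edgeR adjusted p = 0.011).

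Atf3, a stress-responsive factor of the ATF family, separated the stimuli late. It had 55.7 and 50.1 CPM under Bic and 76.5 and 99.4 under KCl at 15 min, with the KCl samples above, but 293 and 247 against 71.3 and 55.1 at 180 min. The log2 difference went from −0.72 ± 0.18 (edgeR adjusted p = 0.17) over 0.68 ± 0.17 at 45 min to 2.13 ± 0.17 at 180 min (edgeR adjusted p = 3.2e-10). Its call at 45 min was lost without any sample of that time (lowest value 0.62) or either Bic sample of 180 min.

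**Figure D2:**
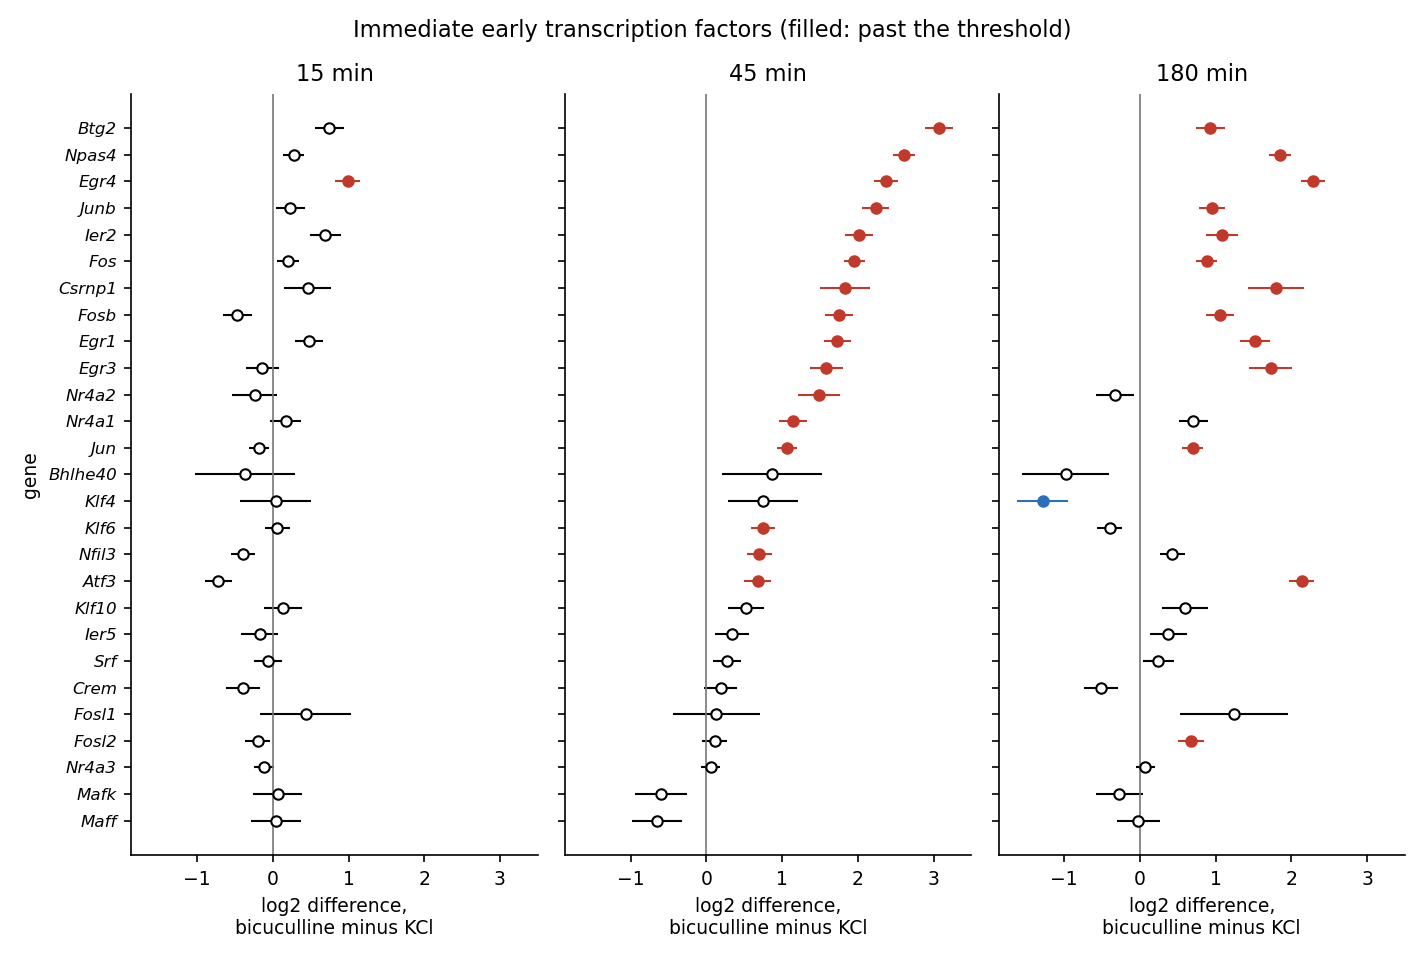
Log2 difference of Bic minus KCl for the 27 tested immediate early transcription factors, ordered by the value at 45 min, with 1 panel per time point. Points are fitted differences of 2 against 2 samples, bars are 1 SE, and filled points passed the threshold (red higher under Bic, blue higher under KCl). At 45 min 16 points are filled, all to the right of 0, and at 180 min Klf4 is the only filled point to the left.

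Npas4, Btg2, Fos and Egr4, called at 45 and 180 min, show the promoters of this group. Their sequence for 250 bases before the transcription start, on the strand of the gene, is from RefSeq (GRCm38.p6). Capitals mark TGACG or its reverse complement CGTCA, the half-site of the cyclic AMP response element TGACGTCA that CREB binds. Npas4 has matches at −179 to −175 and −169 to −165, Fos at −129 to −125 and −66 to −62, and Egr4 at −177 to −173 and −109 to −105 from the start. Btg2 holds the full element, at −166 to −159.
Npas4, chr19:4989972-4990221, minus strand: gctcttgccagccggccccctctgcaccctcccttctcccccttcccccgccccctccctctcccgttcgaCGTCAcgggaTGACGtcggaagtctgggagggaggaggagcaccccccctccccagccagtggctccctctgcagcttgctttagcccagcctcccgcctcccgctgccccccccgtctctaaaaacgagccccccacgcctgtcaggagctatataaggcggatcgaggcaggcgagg
Btg2, chr1:134079156-134079405, minus strand: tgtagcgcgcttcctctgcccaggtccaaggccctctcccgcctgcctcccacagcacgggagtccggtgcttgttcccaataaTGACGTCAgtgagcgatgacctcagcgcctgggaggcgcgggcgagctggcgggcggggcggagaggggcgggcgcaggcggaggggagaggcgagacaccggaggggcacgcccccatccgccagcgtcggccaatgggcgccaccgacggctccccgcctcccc
Fos, chr12:85473640-85473889, plus strand: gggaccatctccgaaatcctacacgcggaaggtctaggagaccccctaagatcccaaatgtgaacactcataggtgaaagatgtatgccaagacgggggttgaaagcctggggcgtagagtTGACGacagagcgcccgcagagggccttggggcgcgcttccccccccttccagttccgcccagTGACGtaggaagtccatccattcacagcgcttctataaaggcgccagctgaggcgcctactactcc
Egr4, chr6:85513590-85513839, minus strand: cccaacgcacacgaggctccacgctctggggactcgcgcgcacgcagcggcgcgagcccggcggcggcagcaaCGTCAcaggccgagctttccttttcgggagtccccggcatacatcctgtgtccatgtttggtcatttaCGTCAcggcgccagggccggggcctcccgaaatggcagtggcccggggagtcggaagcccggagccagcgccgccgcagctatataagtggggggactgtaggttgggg

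The full element, searched on both strands in windows of 300 bases (250 before and 50 after the start, for 8751 of the 10953 genes), was in 8% of 100 windows of genes higher under Bic at 45 min, in 1.96% of 51 windows of genes higher under KCl at 45 min, and in 3.25% of 11394 windows of all genes tested. At 180 min it was in 6.33% of 79 and 6.25% of 96 windows. The half-site, chosen after the windows were seen, was in 43%, 29.4%, 43% and 34.4% of these windows and in 31.6% of all, and in 80% of the 25 windows of immediate early factors. The AP-1 site TGAGTCA was in 4% of windows of genes higher under Bic at 45 min, in none of those higher under KCl, and in 11.4% and 3.12% at 180 min, against 3.42% of all. A CArG box, the serum response element core, was in 2% and 0% at 45 min and in 1.27% and 1.04% at 180 min, against 1.21% of all. A match is a description of the letters and not a site.

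Regulators that end MAP kinase or G protein signals were called in the same direction as most of the transcription factors. Of 20 tested, 7 (35%) were higher under Bic at 45 min, 5 (25%) at 180 min and 1 at 15 min, and none was higher under KCl. Of all genes 0.986%, 0.648% and 0.0365% were higher under Bic at these times, and 0.438%, 0.74% and 0.0548% under KCl. At such shares the lack of calls for KCl among 20 genes is no result about the list. With counts summed over all transcripts of a gene, 2 genes of the list were called at 45 min and 0 at 180 min. Dusp1, the phosphatase that switches MAP kinases off, had 135 and 175 CPM under Bic and 44.8 and 37.8 under KCl at 45 min (1.93 ± 0.17). Trib1, a pseudokinase adaptor, had 51.2 and 69.2 against 14.6 and 11.9 (2.21 ± 0.26). Both were called at 180 min as well, at 0.94 ± 0.18 and 1.73 ± 0.33. The later Dusp1 call was lost without KCl replicate 1 (0.90) or 2 (0.98), and that of Trib1 without Bic replicate 3 (1.61) or KCl replicate 1 (1.39). At 45 min Rgs2 (0.75 ± 0.12) lost its call without KCl replicate 1 (0.60) or Bic replicate 2 (0.56), and Dusp6 (0.65 ± 0.15) without these or KCl replicate 2 (lowest value 0.40). Without KCl replicate 1 of that time 2 genes of the list were called, and without KCl replicate 1 of 180 min 1 gene was called at 180 min.

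Among genes that act at synapses, 4 of 22 (18.2%, against 0.986% of all genes) were higher under Bic at 45 min. At 180 min 3 were (13.6%, against 0.648%). Besides Arc these included Ptgs2, the inducible cyclooxygenase, with 229 and 383 CPM under Bic and 114 and 109 under KCl at 45 min, and 195 and 229 against 56.4 and 64.0 at 180 min. The log2 differences were 1.49 ± 0.17 and 1.83 ± 0.19, after −0.50 ± 0.17 at 15 min (edgeR adjusted p = 0.605). Homer1, a scaffold of metabotropic glutamate receptors, had 228 and 302 CPM under Bic and 247 and 259 under KCl at 45 min. Its differences of −0.14, 0.10 and −0.15 passed no test. These values are of its transcript with the most counts, so a difference in another Homer1 transcript would not show. Camk2a at 180 min had 651 and 254 CPM under Bic and 146 and 246 under KCl, a wide spread within Bic, and its call (1.21 ± 0.28, edgeR adjusted p = 0.017) was lost without Bic replicate 2 (0.37) or KCl replicate 1 (0.90). Arl4d, a small GTPase gene, had 33.97 and 38.23 CPM under Bic and 6.04 and 6.58 under KCl at 45 min (2.54 ± 0.29), a call that held in every fit that left out a sample.

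At 45 min secreted factors were called in 5 of 23 cases for Bic (21.7%, against 0.986% of all genes). In 1 case (4.35%, against 0.438%) the call was for KCl. Inhba, which encodes the activin A subunit, had 184 and 92.6 CPM under Bic and 183 and 168 under KCl at 15 min. At 45 min it had 153 and 201 against 66.1 and 44.8, and at 180 min 142 and 111 against 30.5 and 30.6. All its Bic samples thus lay between 92.6 and 201 CPM, while the KCl samples were lower at each later time, with differences of 1.70 ± 0.21 and 2.06 ± 0.25 (edgeR adjusted p = 3.55e-06 and 4.42e-06). Bdnf, the neurotrophin, had 1018 and 1425 CPM under Bic and 864 and 1024 under KCl at 45 min and 1374 and 1254 against 982 and 818 at 180 min. The Bdnf difference at 180 min passed on p (edgeR adjusted p = 0.017) but was 0.57 ± 0.13, below the fold limit.

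Nptx2, a pentraxin that clusters AMPA receptors, had 556 and 450 CPM under Bic and 646 and 644 under KCl at 15 min, against 78.5 to 146 at basal. It was higher under Bic at 45 min (336 and 591 against 218 and 278, 0.94 ± 0.18) and at 180 min (271 and 261 against 185 and 114, 0.87 ± 0.20). The call at 45 min was lost without KCl replicate 1 (0.78) or Bic replicate 2 (0.45), and that at 180 min without Bic replicate 2 (0.84), Bic replicate 3 (0.91) or KCl replicate 2 (0.54). Scg3, a granin of the secretory granule, went the other way at 45 min, with 213 and 241 CPM under Bic and 364 and 414 under KCl (−0.75 ± 0.13, edgeR adjusted p = 0.0011). The basal samples had 405 to 576 CPM, so both Bic samples lay below all basal samples.

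The calls at 15 min were few. Those higher under Bic were Ccn1, Dusp2, Egr4 and Otud1, and those higher under KCl Ifi202b, Sox3, Cartpt, Prmt6, Nefl and the clone 6530402F18Rik. Ccn1, a matricellular protein induced by serum response factor, had 20.9 and 13.6 CPM under Bic and 2.69 and 6.25 under KCl (1.96 ± 0.36, edgeR adjusted p = 0.018). Cartpt, the precursor of a neuropeptide, had 46.1 and 47.6 CPM under Bic and 98.0 and 94.9 under KCl (−1.04 ± 0.19, edgeR adjusted p = 0.016), above the 24.9 to 39.4 of basal. Sox3, a factor of neural progenitors, had 18.4 and 20.4 CPM under Bic and 49.2 and 48.8 under KCl (−1.35 ± 0.23, edgeR adjusted p = 0.012). At this time 637 genes (5.82%) had an unadjusted p under 0.05. Without KCl replicate 2 of 15 min no gene was called by edgeR and 420 had an unadjusted p under 0.05, while 2 and 4 genes were called without Bic replicates 2 and 3, and DESeq2 called 5 genes on all samples.

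Ccn1 continued to differ at 45 min, with 62.1 and 50.9 CPM under Bic and 6.04 and 6.17 under KCl (3.22 ± 0.30), and not at 180 min (4.35 and 7.93 against 10.2 and 8.35). Otud1 had 242 and 340 CPM under Bic and 180 and 153 under KCl at 15 min, 427 and 532 against 212 and 209 at 45 min, and 535 and 542 against 183 and 193 at 180 min. All 6 KCl samples lay below the basal range of 272 to 355, and both later Bic groups lay above it. The differences were 0.80 ± 0.15, 1.22 ± 0.14 and 1.53 ± 0.15, of which the later calls held in every fit that left out a sample and the first was lost without Bic replicate 3 (0.54) or KCl replicate 2 (0.67).

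Nefl, the neurofilament light chain, was the only gene called in opposite directions. At 15 min it had 433 and 343 CPM under Bic and 552 and 724 under KCl (−0.70 ± 0.15, edgeR adjusted p = 0.049). At 45 min it had 532 and 597 against 318 and 341 (0.80 ± 0.15, edgeR adjusted p = 0.0016), and at 180 min 379 and 330 against 374 and 259. The medium chain Nefm, named after its values were seen, had 168 and 126 CPM against 205 and 264 at 15 min (−0.64 ± 0.17, edgeR adjusted p = 0.23) and 161 and 242 against 109 and 113 at 45 min (0.90 ± 0.17, edgeR adjusted p = 0.0022). Nefl lost its call at 15 min without 7 of the 12 samples in turn, and at 45 min without KCl replicate 1 or Bic replicate 2.

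Genes higher under KCl at 45 min lay lower against basal than those higher under Bic. Of the 108 genes higher under Bic, 68 had both means at or above the basal mean, 38 had Bic above and KCl below, and 2 had both at or below. Of the 48 higher under KCl, none had both means at or above basal, 15 had KCl above and Bic below, and 33 had both at or below. In these 48 the median ratio to basal was 0.897 under KCl and 0.474 under Bic.

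Examples are Ndrg1, a stress-responsive differentiation gene, and the small GTPase gene Arl5c. Ndrg1 had 154 and 119 CPM under Bic and 310 and 241 under KCl, with basal samples at 353 to 435 (−0.997 ± 0.158, edgeR adjusted p = 0.00025), and lost the call without KCl replicate 1 (−0.80, edgeR adjusted p = 0.052). Arl5c had 2.94 and 2.71 CPM under Bic and 11.7 and 14.8 under KCl, with 6.89 to 8.92 at basal (−2.19 ± 0.41), and lost the call without Bic replicate 2. Grm8, a presynaptic glutamate receptor, had 5.87 and 4.82 against 13.2 and 17.7 (−1.50 ± 0.38) and lost the call without each sample of that time. Lpin1, a lipid phosphatase gene named after its values were seen, had 20.1 and 15.7 CPM against 42.7 and 33.7 (−1.09 ± 0.22).

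**Figure D3:**
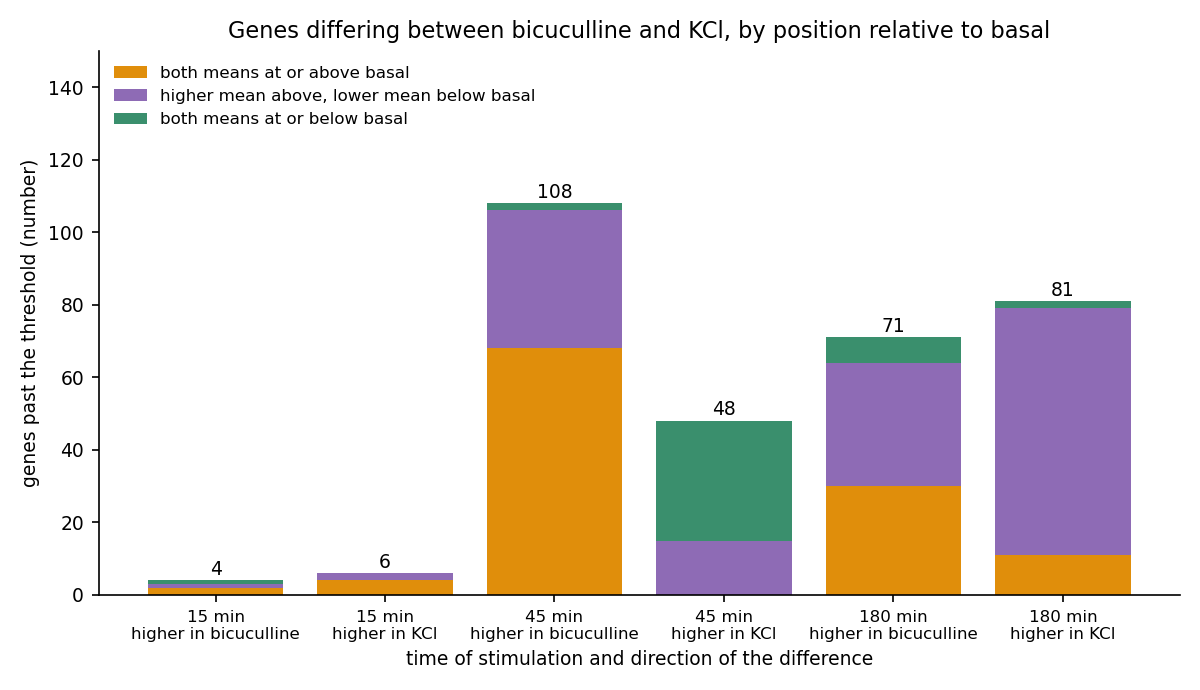
Number of genes past the threshold at each time and in each direction, split by where the Bic and KCl means lie against the mean of 3 basal samples (orange both at or above, purple on either side, green both at or below). At 45 min 33 of the 48 genes higher under KCl are green, and at 180 min 68 of the 81 are purple.

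At 180 min the genes higher under KCl were of another kind. Of the 81, 68 had the KCl mean above and the Bic mean below basal, 11 had both at or above and 2 both at or below, and the median ratios to basal were 1.48 under KCl and 0.815 under Bic. Their median genomic span was 69.24 kb, against 26.27 kb for all genes tested, 9.939 kb for the 71 genes higher under Bic and 27.41 kb for the genes higher under KCl at 45 min. The KCl samples at this time were the shallower ones. With all samples thinned to the smallest, 67 genes were higher under Bic and 55 under KCl, so that the larger group was that of Bic.

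Mylip, a ubiquitin ligase that degrades the LDL receptor, had 9.57 and 12.8 CPM under Bic and 43.8 and 38.97 under KCl, against 10.4 to 13.0 at basal (−1.85 ± 0.27, edgeR adjusted p = 0.00013). Hspa1b, an inducible Hsp70 chaperone, had 98.0 and 84.2 CPM under Bic and 223 and 229 under KCl, against 61.3 to 100.2 at basal (−1.29 ± 0.16, edgeR adjusted p = 3.5e-06). Hspa1b has a near-identical neighbour, Hspa1a, so its counts are uncertain. Both calls held in every fit that left out a sample. Prdm16, a chromatin regulator, had 9.57 and 8.44 CPM under Bic and 39.9 and 22.3 under KCl (−1.73 ± 0.28), and lost its call without KCl replicate 1 (−1.29).

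The stress lists gave 1 call or 1 in each direction at 180 min, where 0.648% of all genes were higher under Bic and 0.74% under KCl. Of 18 chaperone genes tested 1 (5.56%) was higher under Bic (Dnajb1, 149 and 141 CPM against 72.8 and 73.5, 1.01 ± 0.15) and 1 (5.56%) under KCl (Hspa1b), with a median of −0.04. Of 19 genes of the integrated stress response only Ppp1r15a (5.26%) was called, which encodes the phosphatase subunit that restores translation. It had 59.4 and 50.9 CPM under Bic and 124 and 111 under KCl (−1.07 ± 0.18, edgeR adjusted p = 0.00056) and lost the call without Bic replicate 3 (−0.95, edgeR adjusted p = 0.053). Of 19 genes of osmotic stress and ion transport Slc38a2, a neutral amino acid transporter, was higher under KCl (541 and 460 against 973 and 925, −0.90 ± 0.13), and the kinase gene Sgk1 higher under Bic (825 and 855 against 506 and 394, 0.93 ± 0.14).

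**Figure D4:**
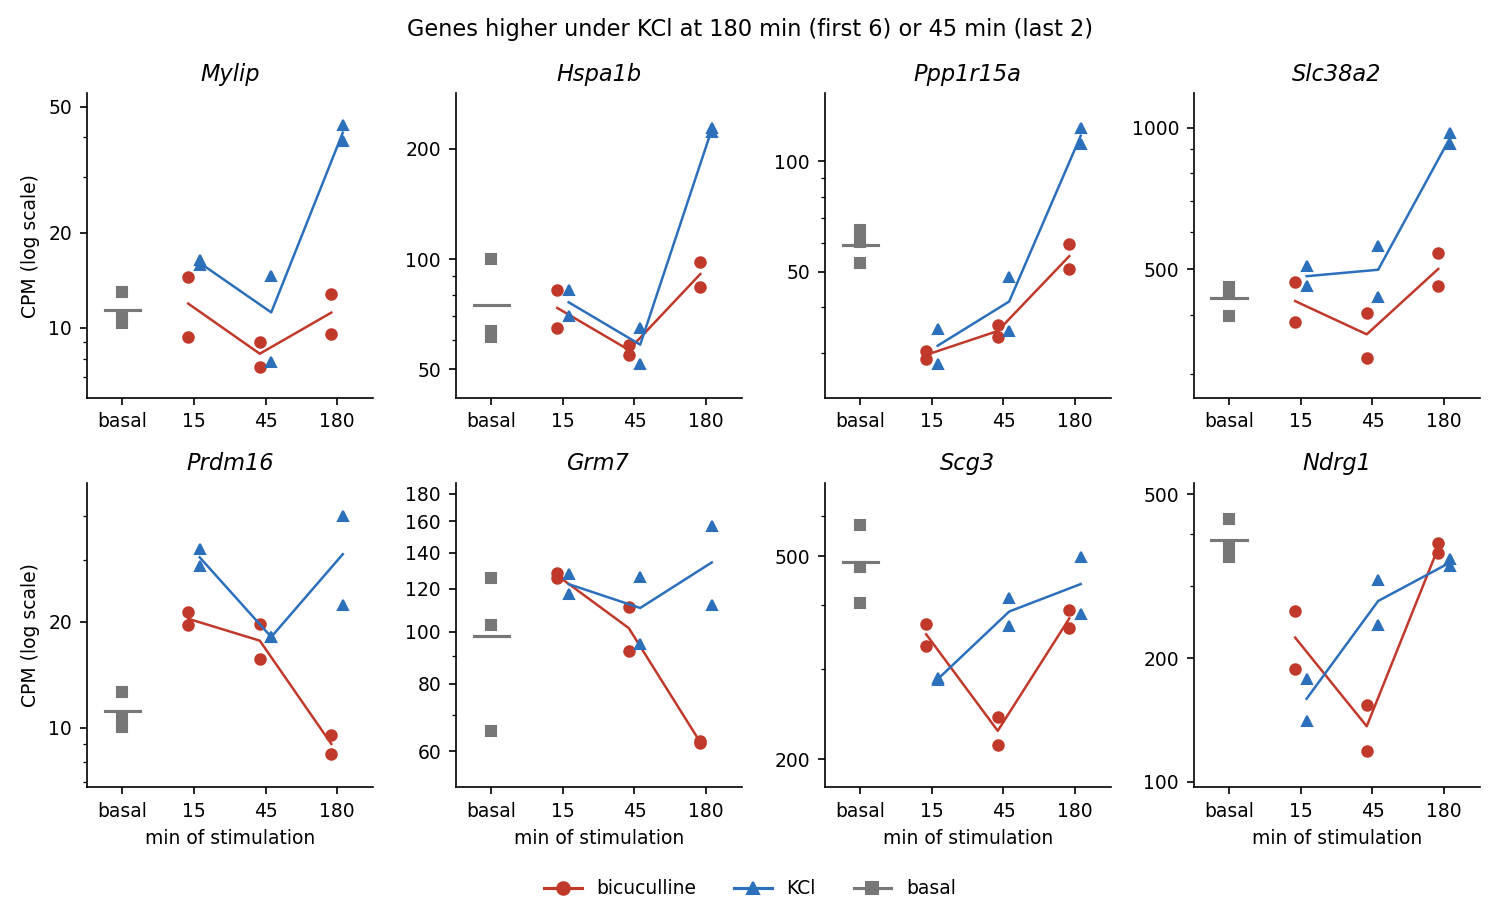
CPM on a log scale in each sample of 6 genes higher under KCl at 180 min and of Scg3 and Ndrg1, higher under KCl at 45 min. Points are samples (circles Bic, triangles KCl, squares basal) and lines join the means of 2 samples. Mylip has 43.8 and 38.97 CPM under KCl at 180 min and 9.57 and 12.8 under Bic.

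Of the 71 genes higher under Bic at 180 min, 30 had both means at or above basal, 34 had Bic above and KCl below, and 7 had both at or below. Il1a, which encodes the cytokine interleukin 1 alpha, had 18.9 and 11.8 CPM under Bic (65 and 46 counts) and 1.57 and 1.11 under KCl (2 counts each), a ratio of 11.6 with a counting interval of 4.4 to 43.3 (95%, exact binomial). Its edgeR adjusted p was 0.0042, and the call was lost without Bic replicate 2, KCl replicate 1 or KCl replicate 2. The cytokine is best known from microglia and macrophages, whose 10 markers (8 in the table) summed to 9.21 and 9.57 CPM in these Bic samples and to 3.92 and 9.46 in the KCl samples, with C1qa, C1qb and C1qc at 0 in both, and their part in the result was not tested. Pim1, a kinase gene named after its values were seen, had 77.7 and 70.3 CPM under Bic and 21.9 and 13.9 under KCl, against 6.04 to 14.9 at basal (2.10 ± 0.35).

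Glial lineage genes also separated the stimuli. Sox10, the master factor of the oligodendrocyte lineage, had 453 and 441 CPM under Bic and 110 and 182 under KCl at 180 min, against 331 to 533 at basal. The KCl samples lay below every other sample shown, and the difference of 1.61 ± 0.17 (edgeR adjusted p = 4.2e-07) held in every fit that left out a sample. At 45 min the Sox10 groups overlapped (544 and 381 against 469 and 409, 0.09 ± 0.16). Olig2, its partner in that lineage, had 132 and 139 CPM against 71.3 and 72.4 at 180 min (0.94 ± 0.15, edgeR adjusted p = 0.00044) and 222 and 235 against 130 and 150 at 45 min (0.74 ± 0.13), where the call was lost without KCl replicate 1 (0.64).

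Hes5, a Notch target of neural progenitors and glia, had 22.0 and 20.7 CPM under Bic and 2.35 and 6.12 under KCl at 180 min, with 20.1 to 24.9 at basal. The Bic samples lay within the basal range and the KCl samples below it (2.25 ± 0.39, edgeR adjusted p = 0.00086), and the call was lost without KCl replicate 1 (1.81, edgeR adjusted p = 0.060). The astrocyte gene Slc4a4, a bicarbonate transporter, went the other way, with 16.2 and 15.4 CPM under Bic and 38.4 and 31.2 under KCl (−1.10 ± 0.28), but lost the call without each of the 4 samples.

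The summed CPM of 12 oligodendrocyte markers was 1026 to 1062 under Bic and 642 to 661 under KCl at 180 min, 1320 to 1564 and 1083 to 1130 at 45 min, 1270 to 1384 and 1405 to 1530 at 15 min, and 839 to 1279 at basal. Most of the gap at 180 min was Sox10 and Olig2 themselves. Olig1 and Pdgfra, called at 45 min only, had differences of 0.23 ± 0.15 and −0.08 ± 0.15 at 180 min (edgeR adjusted p = 0.55 and 0.88). Without the 4 members called at any time, the other 8 markers summed to 168 CPM in both Bic samples and to 149 and 153 in the KCl samples, with 157 to 182 at basal. For 12 astrocyte markers the sum was 4309 to 4693 under Bic and 4585 to 4596 under KCl at 15 min, 4932 to 5721 against 4238 to 4304 at 45 min, 3013 to 3317 against 3553 to 3575 at 180 min, and 2678 to 3256 at basal. The astrocyte sums of 15 and 45 min thus lay above all basal samples under both stimuli. Of 11 tested oligodendrocyte genes 3 were higher under Bic at 45 min (Olig1, Olig2 and Pdgfra, 27.3%) and 2 at 180 min (Olig2 and Sox10, 18.2%). Of all genes 0.986% and 0.648% were higher under Bic at these times. Of 11 astrocyte genes Gfap was higher under Bic at 45 min (515 and 324 CPM against 272 and 229, 0.76 ± 0.16) and lost the call without Bic replicate 1 (0.41) or KCl replicate 2 (0.63). Olig1 (0.69 ± 0.14) lost it without the same samples (0.52 and 0.59). Fewer cells of a type and less RNA per cell cannot be told apart in these bulk samples, and the part of cell composition in other results was not tested.

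**Figure D5:**
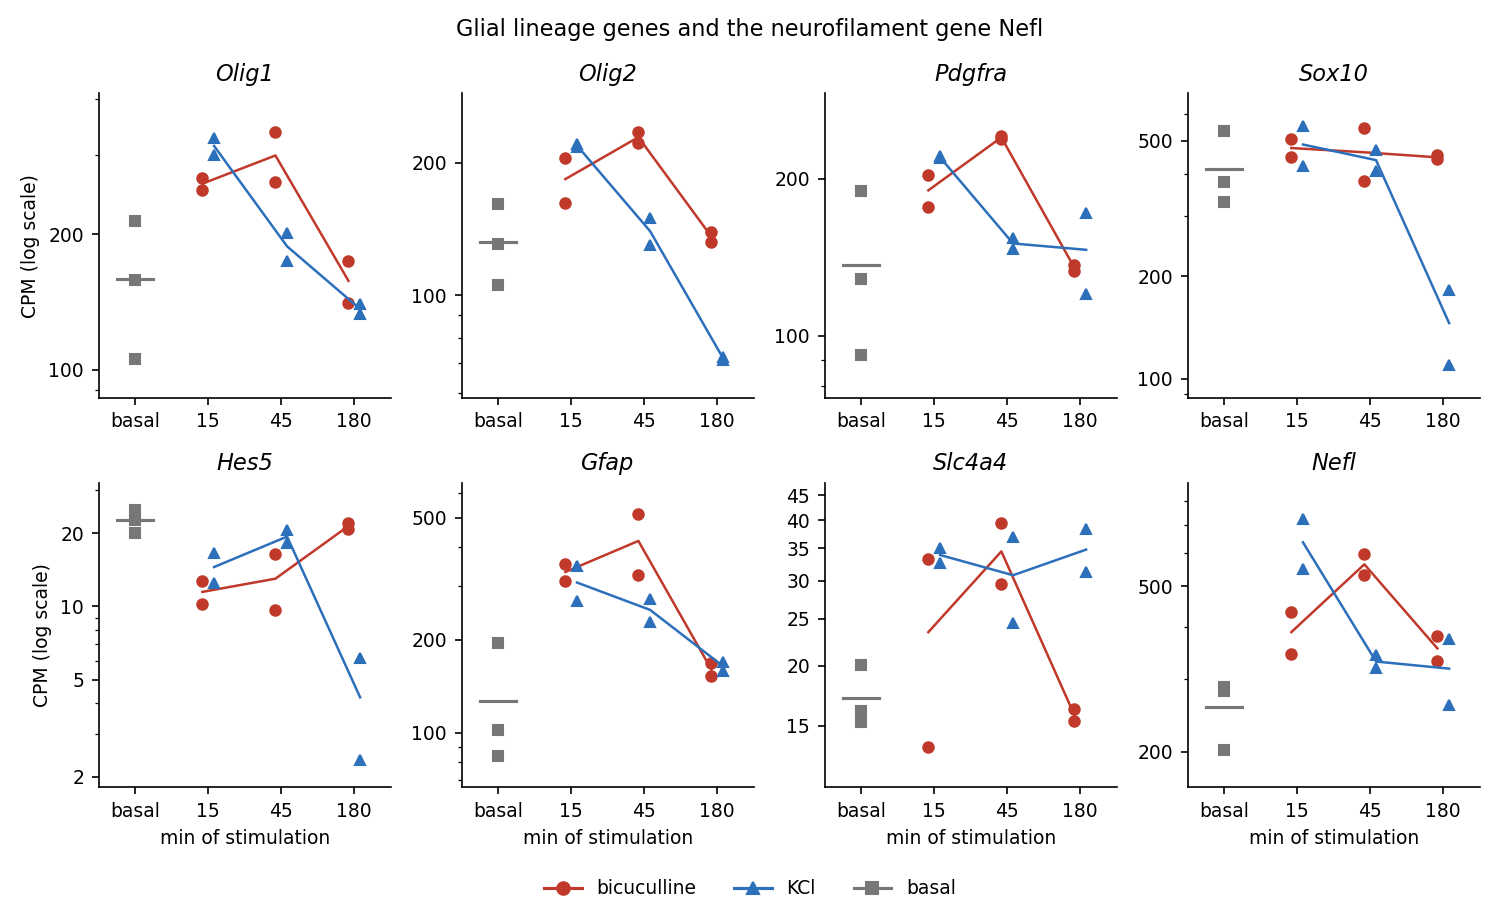
CPM on a log scale in each sample of 7 genes of glia and progenitors and of the neurofilament gene Nefl. Points are samples (circles Bic, triangles KCl, squares basal) and lines join the means of 2 samples. At 180 min Sox10 has 110 and 182 CPM under KCl and 453 and 441 under Bic.

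Genes of neuronal excitability gave no or single calls, which at background shares of 0.0913%, 1.42% and 1.39% is no result about lists of this size. None of 46 tested genes of voltage-gated ion channels, 23 of GABA synapses and 33 of presynaptic release was called at any time or over the 3 times, and their medians lay between −0.08 and 0.12 at every time. Of 27 glutamate receptor genes Grm8 was called at 45 min and Grm7 at 180 min, both higher under KCl. Grm7 had 62.1 and 62.7 CPM under Bic and 157 and 112 under KCl at 180 min (−1.07 ± 0.17, edgeR adjusted p = 0.00037) and lost the call without KCl replicate 1 (−0.82, edgeR adjusted p = 0.060). Of 22 genes of cholesterol synthesis Sc5d was called at 180 min, higher under KCl (−0.71 ± 0.17), and lost the call without each of the 4 samples. Of 21 genes of the CREB pathway and the clock Gadd45g (45 min) and Ppp1r15a (180 min, also a gene of the stress response list) were called. Of 13 actin and serum response factor genes Ccn1 and Actb were higher under Bic at 45 min. Actb had 1127 and 2114 CPM under Bic and 945 and 904 under KCl (0.84 ± 0.16), and lost the call without Bic replicate 2 (0.29) or KCl replicate 1 (0.88) or 2 (0.80). Of 25 genes of glycolysis and hypoxia Ndrg1 alone was called.

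The counts of calls depended on single samples at each time. At 45 min 35 genes were called without KCl replicate 1 and 57 without Bic replicate 2. At 180 min 64 and 51 were called without Bic replicates 2 and 3, and 46 and 67 without KCl replicates 1 and 2. The excess of genes higher under KCl at 180 min did not hold in 3 of these 4 fits (41 higher under Bic and 23 under KCl, 39 and 12, 32 and 14), while without KCl replicate 2 it did (30 and 37). Of the immediate early factors 12 were still called at 45 min without KCl replicate 1, and 6 at 180 min without KCl replicate 2. With counts summed over all transcripts of a gene, 41 genes were called at 45 min and 44 at 180 min, among them 12 and 7 of the immediate early factors.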

How the data were processed

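RNA of 27 samples of 21DIV neurons was measured in the stimuli experiment, of which the 6 Bic and 6 KCl samples were compared. Libraries were prepared by the authors with CEL-Seq2, which reads 3′ ends. STAR served for alignment (mm10) and ESAT for counting. The deposited values are counts, whole numbers for each RefSeq transcript, not normalized. Whether reads with the same molecular identifier were collapsed is not stated, so that intervals cover counting error only. The submitters' processing notes also name edgeR. The maturation experiment was not used here.

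Transcripts were matched to RefSeq genes of GRCm38.p6, the build of mm10. Of 96722 transcripts 80.9% matched, and the rest, with 19.2% of the counts, were left out. The transcript with the most counts represented each of 28216 genes, since transcripts repeat counts (their sum was 3.29 times as large).

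Genes above 5 CPM in at least 2 of the 12 samples were normalized by TMM and fitted with edgeR 4.0.16 (quasi-likelihood test, 6 group means, Benjamini-Hochberg adjustment over all genes, R 4.3.3). SE were derived from the F statistic. Printed CPM are scaled to the counts on genes of a sample, without TMM factors. The steps were tested on simulated data with known changes. Pairs of replicates differed by more than sampling noise in all 6 groups (chi-square per degree of freedom 2.08 to 3.72). Promoters were searched with Python 3.11.15.

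Named genes are the 8 largest mean differences and the 6 largest per time in each direction, among called genes whose samples do not overlap and whose average log2 CPM reaches 3, the 6 lowest p of the variation with time, genes called in opposite directions, called members of 16 pathway and 6 cell type lists, and 12 fixed activity genes. Predicted genes, counted in all totals, are mostly not named, and some genes covered by the rule are given by count. The comparison, the lists and the rule were chosen with earlier results of these data known. Alternatives were RLE size factors, DESeq2 1.42.0, no filter, thinned counts, all 27 samples, a replicate block, counts summed over transcripts, an additive model, fits within a time, and leaving out each sample.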

Additional observations from a re-analysis of the deposited data

Results flagged for a closer look

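The difference between Bic and KCl varied with time beyond the spread between samples in 124 genes (edgeR quasi-likelihood interaction test, adjusted p under 0.05), of which 46 are among the named genes. The 6 lowest values were those of Arc (adjusted p = 4.01e-12, log2 differences of −0.23, 3.77 and 1.63 at 15, 45 and 180 min), Gadd45g (adjusted p = 8.13e-09, −0.02, 2.39 and 0.10), Npas4 (adjusted p = 1.43e-08, 0.28, 2.61 and 1.85), Atf3 (adjusted p = 1.43e-08, −0.72, 0.68 and 2.13), Ptgs2 (adjusted p = 4.79e-07, −0.50, 1.49 and 1.83) and the keratin gene Krt6a (adjusted p = 1.1e-06, −1.09, 2.48 and 0.67). Krt6a had 195 and 205 CPM under Bic and 411 and 443 under KCl at 15 min, and 124 and 343 against 44.8 and 41.1 at 45 min, so that the order of the stimuli turned, although the value at 15 min passed no threshold (adjusted p = 0.104, edgeR). Nefl turned with calls at both times (adjusted p of the variation 0.000166).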

How the results depend on the processing

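None of the 145 called values of named genes changed direction under the alternatives, which gave 2884 values, and 432 of these lost the call. The values were chosen for passing the threshold in the same samples, so a kept direction is no separate evidence. Of the 2884 values 1740 came from leaving out 1 sample, often a sample of another time. Leaving out each sample in turn gave 48 to 85 calls over the 3 times together, 0 to 12 at 15 min, 35 to 180 at 45 min, 46 to 188 at 180 min and 58 to 153 for the variation with time. Counts summed over transcripts gave 33 calls over the times together, 0, 41 and 44 at 15, 45 and 180 min and 10 for the variation with time. A fit on all 27 samples gave 0, 82 and 88 at these times and 49 for the variation. At 15 min these edgeR fits had 579 and 552 genes with an unadjusted p under 0.05. DESeq2 called 5 genes at 15 min and 96 at 45 min, and thinned counts 96 at 45 min. Without the filter there were 25 calls at 15 min and 242 for the variation with time. The 4 samples of a time alone gave 1 call at 15 min and 238 at 180 min, and the additive model 27 over the times together. The cause of these moves was not tested. Whether equal replicate numbers mark paired samples is not stated. Deviations of same-numbered samples correlated at 0.137, 0.0267 and −0.0272 at 15, 45 and 180 min. With 2 samples per group these deviations mirror each other, so the correlations cannot decide it. With the replicate block there were 48 calls over the times together, 1, 151 and 74 at the 3 times and 93 for the variation with time. At 180 min 71 and 81 genes were higher under Bic and KCl, 58 and 54 by DESeq2, 67 and 55 with thinned counts, 52 and 36 with all 27 samples, 45 and 29 with the block and 28 and 16 with summed transcripts.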
